A study of Mus musculus with 2 samples.

Results

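The genes described here are 38 genes of DNA replication and the S phase of the cell cycle, taken by their symbols from a list of replication genes. All 38 were among the 32286 features counted, and all 38 passed the filter on low counts, so none was left out of a test. They were measured in single cells from the caudal end of mouse embryos, where the trunk is being laid down. The embryos were wild type, of strain C57BL/6J, and were collected at embryonic day 8.5. There was 1 group with 2 libraries, replicates 1 and 2, both made with a droplet kit that reads the 5′ end of each transcript. Tissue from several embryos was pooled before dissociation. The labels do not say whether the replicates came from separate pools, so the spread between them may be technical, and p-values measure only that spread.

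Replication is prepared in G1, when the origin recognition complex, Cdc6 and Cdt1 load the Mcm2 to Mcm7 ring onto DNA, and Gmnn (geminin) blocks a repeat of loading after S phase has started. Cdc45 and the GINS complex, which includes Gins2, turn the loaded ring into an active helicase, and Pola1, Prim1, Pcna and Rfc2 serve DNA synthesis at the fork. Many of these genes are transcribed under the control of E2F factors as cells leave G1, whereas genes of mitosis peak later in the cycle. Embryonic cells at this stage divide rapidly, with short gap phases.

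E2F factors bind short GC-rich sites close to the start of transcription, and the promoters of 28 of the 38 genes were in the RefSeq promoter table for GRCm38.p6, which gives 250 bases before the start and 50 after it. The letters TTTGGCGC, TTTCCCGC, TTTGCCGC and TTTCGCGC were searched on both strands, counting overlapping matches separately. At least 1 match lay in 11 of the 28 genes, or 39.3%, against 32.5% of 40 other replication genes, 5.41% of 37 mitosis genes and 2.605% of all 27025 genes with promoters of the same length in the table. A gene with several promoters was counted once, with a match in any of them. The letters CCAAT, the core of the box bound by NF-Y, were in 71.4% of the 28 genes and 75.7% of the mitosis genes. They were in 47.5% of the other replication genes and 41.1% of all genes. TTTGAA, the letters of the cell cycle homology region of many mitosis genes, was in 21.4% of the 28 genes and 70.3% of the mitosis genes. It was in 20% of the other replication genes and 20.2% of all genes. A match is a description of these letters and not a mapped binding site. Of the 4 promoters below, Mcm6 is shown because it held the most matches, and Cdca7 because it differed widely between cell types. Cdc6 and Ung are shown because they changed most between cells high and low in mitosis genes. All 4 are written 5′ to 3′ on the strand of the gene, with matches in capitals. In Mcm6 the first capital run holds 2 overlapping matches on opposite strands, and Ung holds none. A gene annotation of the same build starts Cdc6 at 98907801, so by that annotation the whole Cdc6 window lies inside the gene.
Mcm6, GRCm38.p6 chr1:128359656-128359955, minus strand: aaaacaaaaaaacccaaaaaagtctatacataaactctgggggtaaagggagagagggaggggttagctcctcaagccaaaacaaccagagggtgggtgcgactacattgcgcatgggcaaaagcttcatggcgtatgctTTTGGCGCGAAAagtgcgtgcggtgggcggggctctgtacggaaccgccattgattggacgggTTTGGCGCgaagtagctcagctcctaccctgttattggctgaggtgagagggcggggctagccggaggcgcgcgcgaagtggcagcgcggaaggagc
Cdc6, GRCm38.p6 chr11:98907901-98908200, plus strand: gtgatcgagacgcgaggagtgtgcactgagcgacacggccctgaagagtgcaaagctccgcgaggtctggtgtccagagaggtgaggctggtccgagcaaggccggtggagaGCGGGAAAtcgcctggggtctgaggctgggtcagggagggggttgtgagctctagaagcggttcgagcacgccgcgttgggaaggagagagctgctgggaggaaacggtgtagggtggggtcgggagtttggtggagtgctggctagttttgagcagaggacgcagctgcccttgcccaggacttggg
Cdca7, GRCm38.p6 chr2:72475969-72476268, plus strand: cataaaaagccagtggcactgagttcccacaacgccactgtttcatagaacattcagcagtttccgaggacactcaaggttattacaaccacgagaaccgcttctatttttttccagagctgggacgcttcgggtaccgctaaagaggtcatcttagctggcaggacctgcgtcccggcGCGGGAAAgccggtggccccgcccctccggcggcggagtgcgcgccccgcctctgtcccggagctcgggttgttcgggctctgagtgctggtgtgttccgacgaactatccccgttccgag
Ung, GRCm38.p6 chr5:114130185-114130484, plus strand: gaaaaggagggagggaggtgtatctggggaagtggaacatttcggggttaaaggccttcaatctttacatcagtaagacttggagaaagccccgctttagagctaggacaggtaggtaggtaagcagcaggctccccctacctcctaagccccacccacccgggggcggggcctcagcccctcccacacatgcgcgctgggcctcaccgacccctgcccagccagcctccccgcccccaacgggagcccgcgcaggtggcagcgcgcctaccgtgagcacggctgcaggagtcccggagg

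Replicate 1 held 30449 barcodes with 295866003 unique molecular identifiers (UMIs), and replicate 2 held 18245 barcodes with 150964773 UMIs. Barcodes with at least 2000 UMIs and 0.3 to 10% mitochondrial UMIs numbered 11244 and 8328, with medians of 17872.5 and 13685.5 UMIs. Of these, 9317 in replicate 1 and 6920 in replicate 2 were placed in 1 of 13 types by marker genes, and 77 placed barcodes had a sequence present in both libraries. Markers chose the cells, so a marker that is high in its own gate follows from the rule. As a description, Noto, a node and notochord factor, stood at 575 and 496 UMIs per 1000000 UMIs of the gate (CPM) in the notochord gate, against 4.99 and 4.87 CPM over all kept barcodes. The extraembryonic endoderm gate, with 321 and 66 cells, held different cells in the 2 libraries: the yolk sac apolipoprotein gene Apoa1 was at 5350 and 873 CPM, and Shh, a notochord and gut gene, at 17.7 and 320 CPM. Results of that gate rest on cells that were not alike. The erythroid gate had no cell in replicate 1, and the intermediate mesoderm gate only 14, so both are given as values without a test.

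Over all kept barcodes, the 38 genes together took 0.511% of UMIs in replicate 1 and 0.586% in replicate 2. The 10 genes of helicase loading and activation made up 34.4% and 32.5% of that sum, and the 8 genes of chromatin and histone supply 28.8% and 31.1%. The 3 genes of deoxynucleotide supply held 13.6% and 12.97%, the 9 genes of repair and fork protection 11.7% and 12.3%, and the 6 genes of DNA synthesis 10.8% and 10.4%. Ccne2, a cyclin that acts at the entry to S phase, and E2f8, a repressor of E2F targets, together made up 0.674% and 0.730%.

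Because the kit counts 1 end of each transcript, CPM values were compared between genes without dividing by length. Nasp, a chaperone of histone H3 and H4, was at 536 and 681 CPM. Rrm2, the regulated subunit of ribonucleotide reductase, was at 370 and 415 CPM. Among the helicase subunits, Mcm7 was at 267 and 308 CPM, Mcm6 at 269 and 284 CPM, and Mcm3 at 241 and 301 CPM. These 5 had the highest mean levels of the 38 genes. The lowest were Wdr76, which encodes a WD-repeat protein, at 11.5 and 17.5 CPM, and the helicase gene Brip1 at 11.6 and 14.2 CPM.

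The summed share differed between types in nearly the same order in both libraries. It was highest in the neural tube gate, at 0.609% and 0.690% of UMIs, and next in the caudal epiblast, at 0.553% and 0.630%. Somite stood at 0.532% and 0.599%, lateral plate mesoderm at 0.518% and 0.590%, and presomitic mesoderm at 0.519% and 0.582%. The share in intermediate mesoderm was 0.567% and 0.586%, from 14 and 85 cells. Surface ectoderm had 0.497% and 0.564%, and allantois 0.514% and 0.544%. A lower set followed, with 0.439% and 0.496% in endothelium, 0.424% and 0.484% in gut endoderm, 0.420% and 0.487% in notochord, and 0.340% and 0.412% in extraembryonic endoderm. Within each library, every type of this lower set was below every other type tested.

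Replicate 2 was above replicate 1 in each of these types, by 1.03 to 1.21 times, a gap as wide as that between many neighbouring types. Every type came from the same libraries, so the order was read within each. Somite was above lateral plate mesoderm, presomitic mesoderm, surface ectoderm and allantois in both. Lateral plate and presomitic mesoderm changed places between libraries, as did surface ectoderm and allantois, and gut endoderm and notochord. Neural tube was first and caudal epiblast was next in both libraries among the 11 types tested, and extraembryonic endoderm was last in both. Erythroid blood, measured in replicate 2 alone, had 0.377%, or 0.517% once the globin transcripts that took 27.0% of its UMIs were left out of the total.

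**Figure D1:**
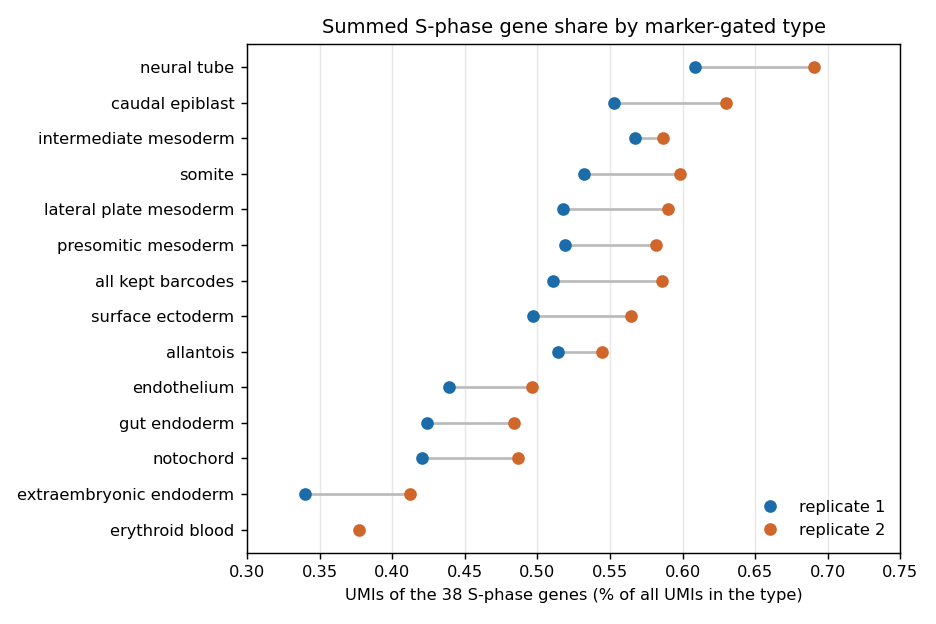
Summed share of the 38 S-phase genes, in % of all UMIs of each marker-gated type (horizontal axis, starting at 0.3%), with 1 point per library and a line joining both. Neural tube lies at 0.609% and 0.690%, extraembryonic endoderm at 0.340% and 0.412%, and replicate 2 lies to the right of replicate 1 in every type with both.

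Each type was then compared with the mean of the other types, for all 14871 genes tested, on counts summed per library and type. A gene is called where edgeR's quasi-likelihood test, with library as a block, gave a Benjamini-Hochberg adjusted p under 0.05 over all those genes. In neural tube, 28 of the 38 genes were higher and none was lower, against 12.9% of all genes higher and 10.9% lower. The median log2 fold change of the 38 genes was 0.35, and that of all genes -0.01. All but 1 of the 10 genes of helicase loading and activation rose, as did 7 of the 8 of chromatin and histone supply and 8 of the 9 of repair and fork protection. Of the 6 genes of DNA synthesis, 3 rose, and of the 3 of deoxynucleotide supply Rrm2 alone.

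Wdr76 showed the largest rise in neural tube: it was at 19.3 and 23.2 CPM there, against 6.13 to 14.9 CPM in the other types of replicate 1 and 12.9 to 23.9 CPM in those of replicate 2 (log2 fold change 0.73 ± 0.12 SE, adjusted p = 0.00038, edgeR). The neural tube value of Wdr76 was above all other types in replicate 1, and below somite in replicate 2. Cdca7, a regulator of chromatin that works with Hells, was at 230 and 249 CPM, above every other type in both libraries (0.66 ± 0.08, adjusted p = 1.78e-05). The largest subunit of DNA polymerase alpha, Pola1, stood at 38.2 and 61.8 CPM in neural tube, again the highest level in each library (0.60 ± 0.08, adjusted p = 6.25e-05). Rrm2 was at 478 and 524 CPM, and its neural tube value was the highest in replicate 2 but not in replicate 1 (0.60 ± 0.11, adjusted p = 0.00105). Of the 5 most abundant genes, Mcm6 reached 345 and 372 CPM in neural tube, against 269 and 284 CPM over all kept barcodes, and Mcm7 332 and 382 CPM, against 267 and 308 CPM.

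In caudal epiblast, the stem zone that supplies both neural tube and paraxial mesoderm, 15 of the 38 genes were higher and none lower, against 8.22% of all genes higher and 5.64% lower. The 6 subunits of the Mcm2 to Mcm7 ring were all among them, with 5 genes of chromatin and histone supply, 3 of repair and fork protection, and Pola1. Cdca7 was at 215 and 212 CPM in caudal epiblast, against a median of 146 and 172 CPM over the other types (log2 fold change 0.46 ± 0.08, adjusted p = 0.000897, edgeR). Ung, the glycosylase that removes uracil from DNA, was at 95.3 and 103 CPM, above every other type in both libraries (0.43 ± 0.09, adjusted p = 0.00257). Mcm3 was at 284 and 358 CPM (0.41 ± 0.06, adjusted p = 0.000255). Uhrf1, which recruits the maintenance DNA methyltransferase to newly copied DNA, was at 225 and 301 CPM and also above every other type (0.39 ± 0.09, adjusted p = 0.00628). No gene of deoxynucleotide supply was called in caudal epiblast.

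The mesodermal gates held fewer calls, and by edgeR the share of the 38 genes called in presomitic mesoderm, lateral plate mesoderm and allantois was near that of all genes. In somite, 10 of the 38 genes were higher and none lower, against 10.5% and 8.94% of all genes. Wdr76 was at 14.2 and 23.9 CPM in somite (0.53 ± 0.13, adjusted p = 0.00955, edgeR). Nasp reached 669 and 794 CPM, against 284 to 655 CPM in the other types of replicate 1 and 423 to 802 CPM in those of replicate 2 (0.52 ± 0.06, adjusted p = 8.24e-06). Nasp in somite was thus the highest of the types in replicate 1 and just below neural tube in replicate 2. Rrm2 was at 445 and 454 CPM (0.45 ± 0.11, adjusted p = 0.0108), and Rad51ap1, a gene of DNA repair, at 43.7 and 55.6 CPM (0.42 ± 0.10, adjusted p = 0.00518).

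In presomitic mesoderm, 4 of the 38 genes were higher and none lower, against 7.44% and 5.1% of all genes. The 4 were Dtl, the receptor of a ubiquitin ligase that removes Cdt1 during S phase, at 67.4 and 92.5 CPM (0.32 ± 0.08), Uhrf1 at 208 and 291 CPM (0.31 ± 0.09), Nasp at 585 and 702 CPM (0.27 ± 0.06) and the exonuclease gene Exo1 at 49.7 and 60.2 CPM (0.24 ± 0.07). Their adjusted p by edgeR were 0.0163, 0.0315, 0.00498 and 0.0422 in that order. DESeq2 called 10 genes higher in this comparison, against 9.32% of all genes.

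In lateral plate mesoderm, 2 of the 38 genes were higher and none lower, against 7.32% and 4.36% of all genes. They were Cdc6 at 48.5 and 55.5 CPM (0.34 ± 0.08, adjusted p = 0.0108, edgeR) and Nasp at 544 and 710 CPM (0.23 ± 0.06, adjusted p = 0.0137). In allantois, from 73 and 76 cells, 2 genes were higher and none lower, against 2.99% and 2.09% of all genes. Brip1 was at 16.6 and 29.2 CPM in allantois (0.80 ± 0.19, adjusted p = 0.0244), and Rrm1, the large subunit of ribonucleotide reductase, at 194 and 240 CPM (0.39 ± 0.08, adjusted p = 0.00766). Both allantois values exceeded every other type in each library. Without the extraembryonic endoderm gate in the fit, lateral plate mesoderm had 5 calls and allantois 2 higher and 2 lower.

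Surface ectoderm had 6 genes higher and 1 lower, against 13% and 5.7% of all genes, a share again near that of all genes. The 1 lower gene was Gins2, a subunit of the GINS complex: it was at 68.9 and 62.9 CPM in surface ectoderm, against 94.1 to 155 CPM in the other types of replicate 1 and 104 to 143 CPM in those of replicate 2 (log2 fold change -0.89 ± 0.13, adjusted p = 7.91e-05, edgeR). The surface ectoderm value lay below every other type tested in both libraries, while the other 9 genes of helicase loading and activation had 3 calls, all higher. In the erythroid gate of replicate 2, Gins2 was at 58.8 CPM. The annotation places Gins2 at 120578633 to 120589304 on chromosome 8 of GRCm38, minus strand, where it overlaps Gse1 and Gm20388 on the other strand. The sources used here do not say whether counting used strand. Higher in surface ectoderm were Pola1 at 32.8 and 59.0 CPM (0.40 ± 0.08, adjusted p = 0.00244), Cdca7 at 164 and 233 CPM (0.29 ± 0.08, adjusted p = 0.018), Mcm4 at 231 and 273 CPM (0.25 ± 0.07, adjusted p = 0.0226), and Gmnn at 170 and 160 CPM (0.24 ± 0.07, adjusted p = 0.0254).

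Endothelium had 5 genes higher and 4 lower, against 20.8% and 13.2% of all genes, so its share of calls was not above that of all genes. Cdc6 was at 48.8 and 60.3 CPM in endothelium, the highest level of any type in both libraries (log2 fold change 0.54 ± 0.09, adjusted p = 0.000134, edgeR). Mcm3 was at 265 and 351 CPM (0.48 ± 0.06, adjusted p = 1.27e-05), Rrm1 at 188 and 197 CPM (0.42 ± 0.07, adjusted p = 0.000147), and Rad51ap1 at 39.1 and 47.5 CPM (0.31 ± 0.10, adjusted p = 0.022). Nasp was lower, at 321 and 434 CPM, against a median over the other types of 528 and 669 CPM (-0.44 ± 0.06, adjusted p = 3.53e-05). Ung at 50.04 and 65.0 CPM (-0.30 ± 0.10), Cdca7 at 110 and 141 CPM (-0.26 ± 0.09) and Mcm7 at 194 and 230 CPM (-0.23 ± 0.07) were also lower, with adjusted p of 0.0208, 0.0274 and 0.0166. This split depended on the scaling. Without scaling factors, the median over all genes moved by -0.13 on the log2 scale and the calls became 3 higher and 12 lower, against 16.1% and 19.5% of all genes. Cdc6, Mcm3 and Rrm1 stayed higher there. Of the 40 mitosis genes, 13 were higher and 2 lower in endothelium.

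In gut endoderm, 17 of the 38 genes were lower and none higher, against 8.36% of all genes lower and 16.4% higher. Mcm3 was at 170 and 212 CPM in gut endoderm, against a median of 235 and 286 CPM over the other types (log2 fold change -0.43 ± 0.07, adjusted p = 0.00017, edgeR). Cdc6 was at 30.5 and 36.9 CPM (-0.37 ± 0.10, adjusted p = 0.0111) and Dtl at 42.7 and 61.8 CPM (-0.37 ± 0.10, adjusted p = 0.00913). The sliding clamp gene Pcna was at 149 and 173 CPM (-0.37 ± 0.12, adjusted p = 0.0307). Few mitosis genes were called beside them: their summed share was 0.488% and 0.538% of UMIs in gut endoderm and 0.495% and 0.548% over all kept barcodes, with 2 of the 40 called higher and 3 lower. With no filter on low counts, 10 of the 38 genes were called, against 2480 of all 23314 genes higher and 1075 lower.

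Extraembryonic endoderm, whose libraries held different cells, had 25 genes lower and none higher, against 16.1% of all genes lower and 21.2% higher. Mcm3 was at 121 and 168 CPM, below every other type in both libraries (-0.82 ± 0.07, adjusted p = 3.01e-07, edgeR). Rrm2 was at 191 and 220 CPM (-0.78 ± 0.14, adjusted p = 0.000271), Cdca7 at 84.4 and 121 CPM (-0.69 ± 0.10, adjusted p = 3.64e-05) and Pola1 at 15.7 and 27.3 CPM (-0.67 ± 0.12, adjusted p = 0.000266). Cdca7 and Pola1 were below all other types in each library. The direction was the same in both libraries for every one of the called genes. The test used both libraries together and so favours such genes, and this adds no separate support. The Apoa1 and Shh levels of the gate differed several-fold between the libraries.

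In notochord, from 74 cells in each library, 22 of the 38 genes were lower and none higher, against 9.1% of all genes lower and 9.72% higher. The median log2 fold change of the 38 genes was -0.39. Rrm2 was at 179 and 254 CPM in notochord, against a median of 386 and 384 CPM over the other types (-0.94 ± 0.14, adjusted p = 0.000269, edgeR). Cdc45 was at 28.4 and 20.04 CPM, below all other types in both libraries (-0.84 ± 0.17, adjusted p = 0.00255). The deubiquitinase Usp1, which acts on Pcna, was at 70.1 and 86.4 CPM and likewise the lowest (-0.80 ± 0.15, adjusted p = 0.00151). Rad51ap1 was at 24.0 and 30.1 CPM (-0.77 ± 0.16, adjusted p = 0.00296).

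By role, 7 of the 10 genes of helicase loading and activation were lower in notochord, 6 of the 9 of repair and fork protection, 5 of the 8 of chromatin and histone supply, 2 of the 3 of deoxynucleotide supply, 2 of the 6 of DNA synthesis, and 0 of the 2 of S-phase entry control. Differences between roles were not tested. Mcm6 was at 297 and 282 CPM in notochord (-0.01 ± 0.08, adjusted p = 0.975, edgeR), while the ring subunits Mcm3, Mcm4, Mcm5 and Mcm7 were called lower. Fen1, the nuclease that trims Okazaki fragments, had a log2 fold change of 0.07 ± 0.08 and Tyms, thymidylate synthase, -0.05 ± 0.11, neither of them called. Without scaling factors the median over all genes moved by 0.18 on the log2 scale, 14 of the 38 genes were lower, against 3.76% of all genes, and Fen1 was called higher. In the same gate 27 of the 40 mitosis genes were lower and none higher, and the summed mitosis share was 0.359% and 0.454%, against 0.495% and 0.548% over all kept barcodes. The CDK inhibitor gene Cdkn1a was at 126 and 120 CPM in notochord, against 39.0 and 29.3 CPM over all kept barcodes (2.30 ± 0.18, adjusted p = 2.73e-07). Cdkn1a was also higher in extraembryonic endoderm (1.67), surface ectoderm (1.59), gut endoderm (1.48) and caudal epiblast (1.44), and lower in allantois (-2.48), neural tube (-2.01), somite (-1.94), lateral plate mesoderm (-1.90) and endothelium (-0.54). Its levels thus did not run opposite to those of the 38 genes in every type: caudal epiblast had Cdkn1a at 67.3 and 59.7 CPM and 15 of the 38 genes higher. Cdkn1c, another CDK inhibitor gene, was called higher by edgeR in allantois (2.23), notochord (1.74), extraembryonic endoderm (1.53) and gut endoderm (0.69). It was called lower in surface ectoderm (-1.57), presomitic mesoderm (-1.43), caudal epiblast (-1.29), neural tube (-1.27) and somite (-1.01). Among the other CDK inhibitor genes tested, Cdkn2a was called higher in extraembryonic endoderm (6.00) and gut endoderm (3.47). Cdkn1b was called lower in caudal epiblast (-0.65) and Cdkn2d higher in endothelium (0.51). None of Cdkn2a, Cdkn1b and Cdkn2d was called in a further type. The part of the CDK inhibitor genes in these levels was not tested. In bulk sums of a type, fewer cells in S phase and less RNA per S-phase cell cannot be told apart.

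**Figure D2:**
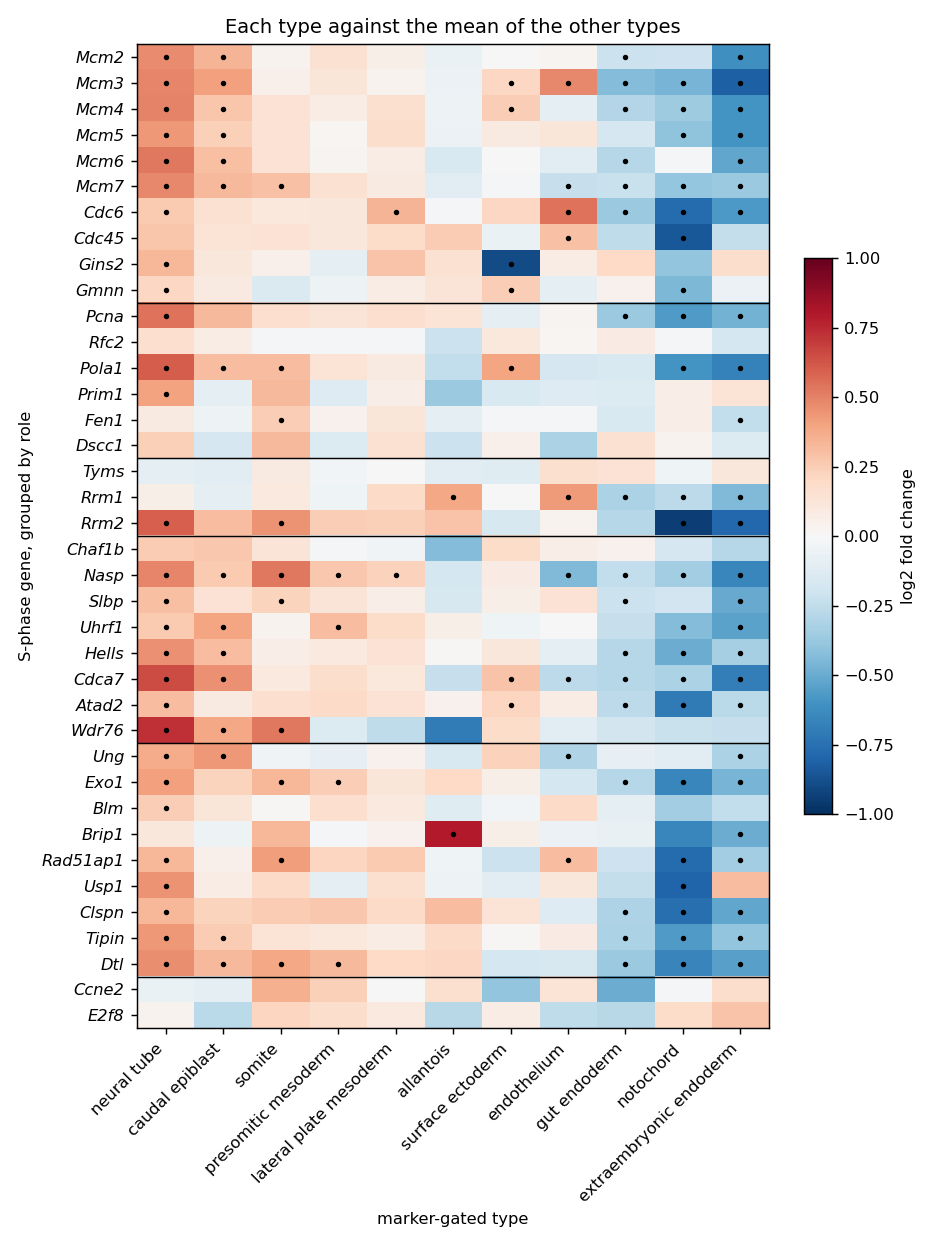
Log2 fold change of each S-phase gene (rows, grouped by role with lines between roles) in each type against the mean of the other types (columns), in colour from -1 to 1, with a dot where the adjusted p was under 0.05. Neural tube holds 28 dots, all higher, and notochord 22, all lower, while the single dark cell in surface ectoderm is Gins2.

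Other replication genes, 46 that are not among the 38, were counted the same way. In neural tube 31 were higher and none lower. E2f2, an activating E2F factor, had the largest rise (log2 fold change 1.75 ± 0.27, adjusted p = 0.000177, edgeR), followed by Pole2, a subunit of DNA polymerase epsilon, at 0.65 and the histone chaperone gene Asf1b at 0.64. Caudal epiblast had 6 higher and none lower, with E2f1 at 0.43, Mcm10 at 0.42 and Dut, the dUTPase gene, at 0.41. Notochord had 16 lower and none higher. Orc1, a subunit of the origin recognition complex, was at 7.99 and 6.26 CPM in notochord, against 21.5 and 21.4 CPM over all kept barcodes (-1.68 ± 0.26, adjusted p = 0.000348). Cyclin A2, encoded by Ccna2, followed at -0.999 and E2f1 at -0.996. Gut endoderm had 11 lower and none higher, led by Asf1b at -0.72, E2f1 at -0.68 and Wdhd1 at -0.53. Extraembryonic endoderm had 24 lower and none higher, and endothelium 3 higher and 6 lower. Presomitic mesoderm had 2 higher, somite 5, lateral plate mesoderm 3, allantois 1 and surface ectoderm 1, and none of these types had one lower. Those counts were near or below the share of all genes called higher, which was 7.44%, 10.5%, 7.32%, 2.99% and 13% in that order. Among all genes, 12.9% were higher in neural tube and 8.22% in caudal epiblast. Lower were 9.1% in notochord, 8.36% in gut endoderm and 16.1% in extraembryonic endoderm, and endothelium had 20.8% higher and 13.2% lower.

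Tyms, Rfc2, Chaf1b, Dscc1, Ccne2 and E2f8 were called in none of the 11 types. This does not make them even: the log2 fold changes of Ccne2 ranged from -0.50 to 0.36, about as widely as those of Mcm7, which was called in 7 types. Tyms had the narrowest range of log2 fold changes, from -0.12 in surface ectoderm to 0.16 in endothelium, and its level lay between 163 and 199 CPM in the types of replicate 1 and between 153 and 214 CPM in those of replicate 2. Rrm2 had the widest range, from -0.94 in notochord to 0.60 in neural tube. Nasp was called in the most types, higher in 5 and lower in 4. The 11 types of a library differed in depth and cell number, so correlations over them are a description. Within each library, the log2 level of Mcm5 had a Pearson r of 0.96 and 0.94 with the log2 sum of the other 37 genes. Mcm7 had one of 0.95 and 0.88, and Tyms one of -0.16 and -0.74. Prim1 at 0.19 and 0.26, and Gins2 at 0.01 and 0.24, were also low. The 6 ring subunits had values of 0.77 to 0.96. Pcna, Tyms and Nasp have annotated pseudogenes by name, and no source used here says how reads shared with these copies were counted.

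Along the steps from caudal epiblast, few of the 38 genes passed the test. Presomitic mesoderm against caudal epiblast gave 1 gene lower and none higher, against 2.06% and 2.17% of all genes. It was Ung, at 70.3 and 72.7 CPM in presomitic mesoderm, against 95.3 and 103 CPM in caudal epiblast (log2 fold change -0.47 ± 0.12, adjusted p = 0.0302, edgeR). Somite against presomitic mesoderm gave 1 gene higher and none lower, against 2.88% and 3.18% of all genes. It was Wdr76, at 14.2 and 23.9 CPM in somite, against 10.6 and 14.6 CPM in presomitic mesoderm (0.60 ± 0.17, adjusted p = 0.0414), and 6 of the alternative settings listed in the closing section left no call in this step. Neural tube against caudal epiblast gave no call by edgeR, against 2.22% of all genes higher and 2.46% lower. There, 35 of the 38 log2 fold changes were above 0, 7 genes had an unadjusted p under 0.05, and DESeq2 called 7 genes higher, against 2.83% of all genes. In presomitic mesoderm against caudal epiblast, DESeq2 called 7 genes lower and 1 higher, against 3.07% and 3.01% of all genes, and in somite against presomitic mesoderm 3 genes higher, against 3.68%. By edgeR the count in each of the 3 steps was close to what the share of all genes called would give, while the 7 genes that DESeq2 called in neural tube and the 7 that it called lower in presomitic mesoderm, each against caudal epiblast, were above that share.

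The genes were next placed against mitosis within each type. Cells were thinned to 4000 UMIs each, which left out 550 cells of replicate 1 and 294 of replicate 2, and were divided, within each type and library, into 3 equal groups by their summed UMIs of the 40 mitosis genes. Mean UMIs of the 38 genes per cell were 24.5 in the group low in mitosis genes, 21.1 in the middle group and 17.5 in the high group of replicate 1. In replicate 2 they were 27.9, 24.2 and 19.2. The groups differed in depth before thinning, with medians of 20464 and 16289.5 UMIs in the high group and 17280 and 12837 UMIs in the low group, and the part of depth in the result was not tested.

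Between the high and the low group, 36 of the 38 genes were lower and none higher, against 8.24% of all 13112 genes tested lower and 7.99% higher. The median log2 fold change of the 38 genes was -0.61, and that of all genes -0.01. The fit held 6 sums, 1 for each group and library, which leaves 2 residual degrees of freedom, so the small p-values rest on a spread shared over all genes. With no replicate block, 5 of the 38 genes were called, against 24 of all 13112 genes called higher and 7 lower. Ung changed most: it was at 40.0 and 41.6 CPM in the high group, against 122 and 139 CPM in the low group (-1.69 ± 0.06, adjusted p = 2.6e-34, edgeR), with the middle group at 76.4 and 89.9 CPM. Cdc6 was at 28.3 and 28.3 CPM in the high group, against 66.3 and 81.5 CPM in the low group (-1.38 ± 0.07, adjusted p = 1.55e-24). Ccne2 was at 13.6 and 13.1 CPM in the high group, against 28.5 and 37.1 CPM in the low group (-1.27 ± 0.11, adjusted p = 1.22e-15). For E2f8 the values were 10.96 and 12.0 CPM in the high group, against 22.3 and 21.9 CPM in the low group (-0.96 ± 0.12, adjusted p = 9.26e-10). Ccne2 and E2f8, which were called in no type, were thus among the genes that changed most with mitosis genes inside types.

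The 5 most abundant genes had changes of -0.76 to -0.28. Rrm2 was at 282 and 312 CPM in the high group, against 474 and 517 CPM in the low group (-0.76), and Mcm6 at 223 and 224 CPM, against 333 and 344 CPM (-0.62). Mcm3 was at 203 and 233 CPM in the high group, against 298 and 361 CPM in the low group (-0.61). The ring subunits were spread between -0.38 for Mcm7 and -0.80 for Mcm4. Nasp was at 504 and 616 CPM in the high group, against 590 and 753 CPM in the low group (-0.28). At the weak end, Tyms had -0.13, Rrm1 -0.16, Usp1 -0.16, Cdca7 -0.17 and Rfc2 -0.18, all called. Pola1 (-0.14, adjusted p = 0.246) and the helicase gene Blm (0.06, adjusted p = 0.594) were not called. Cdca7 and Pola1, which differed widely between types, thus had small values between these groups.

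**Figure D3:**
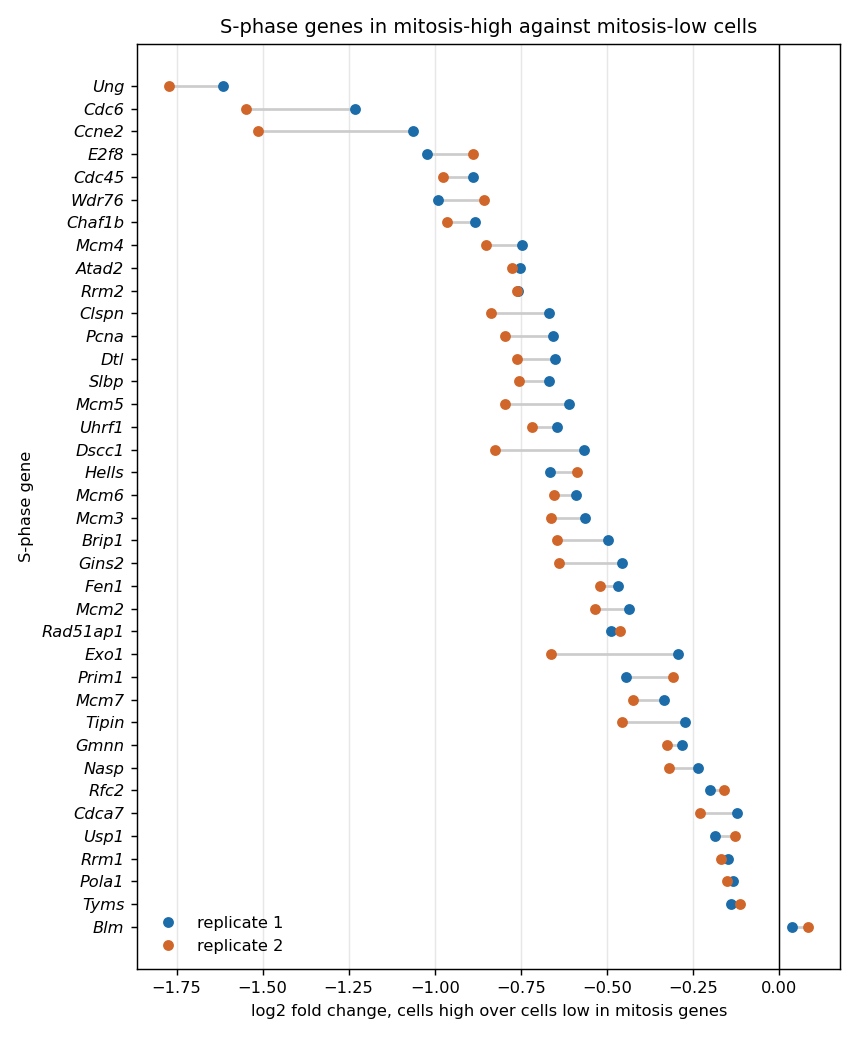
Log2 fold change of each S-phase gene in cells high over cells low in mitosis genes (horizontal axis), with 1 point per library, sorted by the fitted change. Ung lies at -1.62 and -1.77 at the top, and Blm, at 0.04 and 0.09, is the only gene with both points right of 0.

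The other replication genes were divided in the same comparison, with 30 of 46 lower and 2 higher, against 8.24% and 7.99% of all genes. Lower were E2f2 (-1.84 ± 0.27, adjusted p = 3.29e-07, edgeR), Ccne1, the other E-type cyclin (-0.97 ± 0.06, adjusted p = 1.61e-21), and E2f1 (-0.88 ± 0.07, adjusted p = 1.59e-15). The 2 higher genes were Dbf4, the activator of the Cdc7 kinase (0.70 ± 0.05, adjusted p = 3.46e-17), and Ccna2, which also acts in G2 (0.44 ± 0.04, adjusted p = 3.21e-15). The genes with an E2F match in the promoter changed by -1.38 to -0.14, with a median of -0.62, and those without a match by -1.69 to 0.06, with a median of -0.56. Both groups spanned nearly the whole range, and Ung, which changed most, held no match in its window.

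Type by type, mean UMIs of the 38 genes per thinned cell were lower in the high than in the low group in every type of replicate 2 and in all but notochord of replicate 1. Presomitic mesoderm had 17.0 and 18.5 UMIs in the high group, against 26.0 and 29.3 UMIs in the low group. In neural tube the values were 21.5 and 23.8 UMIs in the high group, against 28.2 and 32.7 UMIs in the low group. The high group of neural tube was therefore above the low group of gut endoderm, which had 18.6 and 22.6 UMIs. Notochord had 16.4 and 15.5 UMIs in the high group, against 15.8 and 18.4 UMIs in the low group, so its libraries differed in direction. Its middle group was the highest in both, at 17.8 and 24.9 UMIs, with 23 cells in each group of each library. Extraembryonic endoderm had a small gap, with 12.8 and 13.8 UMIs in the high group, against 16.3 and 15.7 UMIs in the low group. Its middle group had 12.4 and 20.9 UMIs, from 90 and 21 cells, and was the highest in replicate 2.

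**Figure D4:**
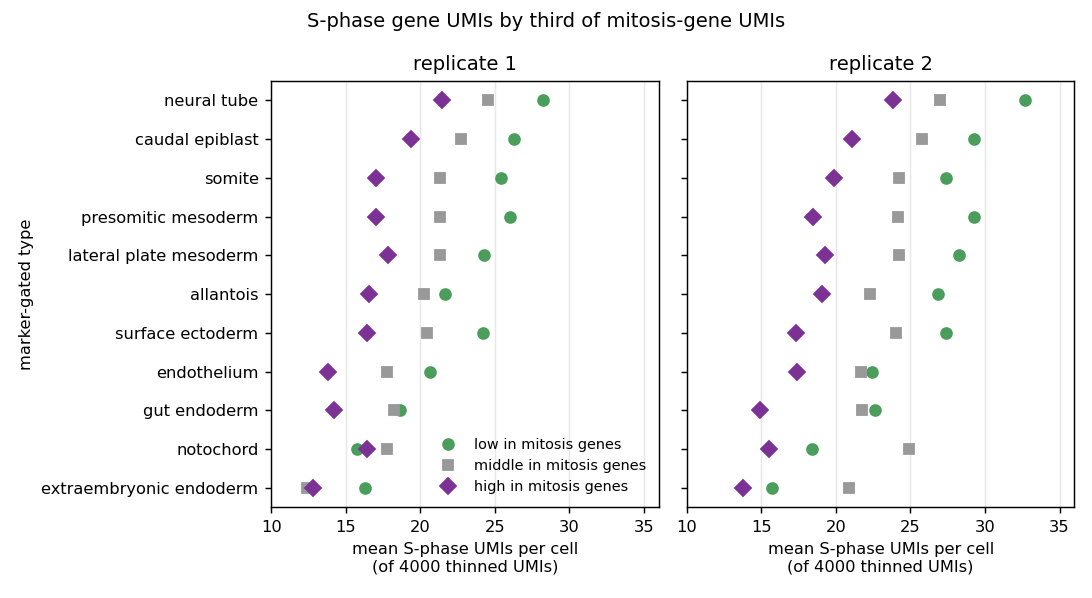
Mean UMIs of the 38 S-phase genes per cell after thinning to 4000 UMIs (horizontal axis, starting at 10), for the groups of cells low, middle and high in mitosis genes in each type, with 1 panel per library. In presomitic mesoderm the high group lies at 17.0 and 18.5 UMIs and the low group at 26.0 and 29.3, and in notochord of replicate 1 the high and low groups nearly coincide, at 16.4 and 15.8.

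The 38 genes also varied together from cell to cell. For each gene, thinned cells were divided into 3 equal groups by their UMIs of the other 37 genes, and its level in the top group was set against that in the bottom group. The log2 ratio was 1.44 and 1.49 for Ung, 1.28 and 1.47 for Cdc6, 1.27 and 1.21 for E2f8, and 0.92 and 1.48 for Ccne2. It was 0.03 and -0.04 for Blm, 0.10 and 0.14 for Tyms, and 0.31 and 0.00 for Pola1. Across the 38 genes, which are not independent replicates and were counted in the same cells, this ratio and the change with mitosis genes had a Pearson r of -0.94 and -0.95. Genes with larger ratios thus tended to fall more in mitosis-high cells, and Blm, Tyms and Pola1 stood at the opposite end of both measures. The ratio gives the size of a change and not how closely a gene follows the others in single cells.

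**Figure D5:**
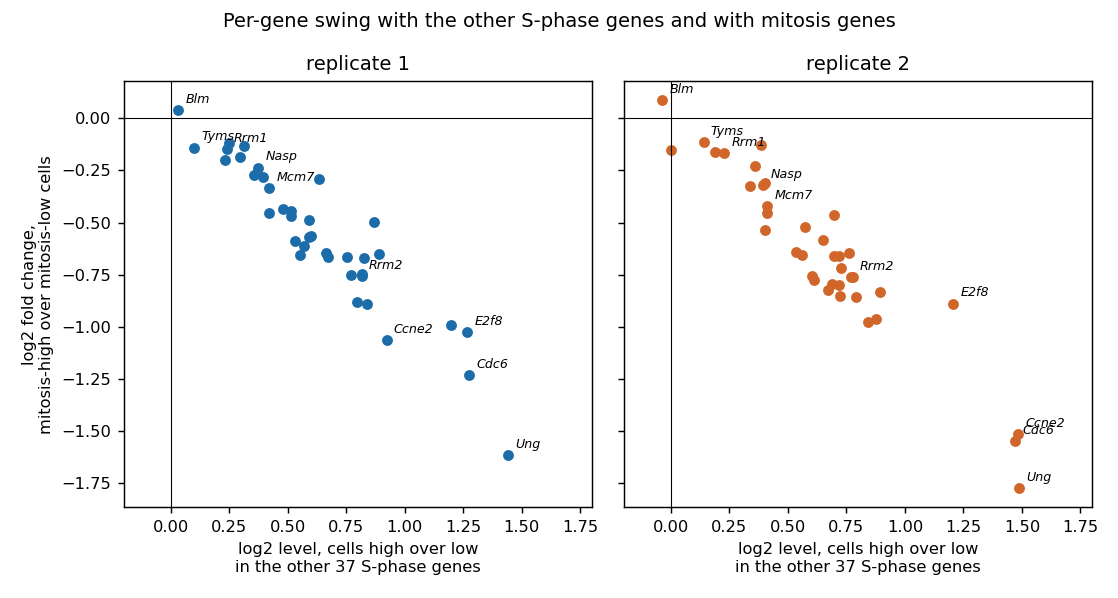
For each S-phase gene, the log2 ratio of its level in cells high over cells low in the other 37 genes (horizontal axis) against its log2 fold change in mitosis-high over mitosis-low cells (vertical axis), with 1 panel per library and some genes named. Points run from Blm at the upper left to Ung at the lower right, with a Pearson r of -0.94 and -0.95 across genes.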

How the data were processed

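The authors deposited counts, that is, the UMIs of each gene in each barcode as whole numbers. The submitters' processing notes name Cell Ranger 6.1.1 and the genome build mm10, and no source used here names the annotation. Barcodes were kept with at least 2000 UMIs and 0.3 to 10% mitochondrial UMIs, which left out 11242 and 5184 barcodes under 0.3%. A cell was placed in a type when at least 2 of that type's markers were detected, and more than of any other type, a rule set after the counts had been seen. Doublets were left to this rule. Scrublet, given expected rates of 18.0% and 10.8%, marked 6.21% and 3.68% of barcodes, and removing them was an alternative.

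Raw counts were summed per library and type for the 11 types with at least 50 cells in each library. They were tested with the quasi-likelihood F test of edgeR 4.0.16 after a check on simulated data. Low genes were removed with filterByExpr, TMM factors scaled the sums, the prior count was 2, library was a block, and p-values were adjusted over all genes by Benjamini-Hochberg. Library is a block because every type was taken from the same 2 libraries. Marker genes, and in the mitosis comparison the mitosis genes, were left out of counts of calls. DESeq2 1.42.0 was an alternative. Fold changes are on the log2 scale with their standard error (SE). The 38 genes, the other gene lists and the markers were chosen with earlier results of these data known. All 38 genes were counted by role. Values per library were given for the summed share, the 5 genes with the highest mean level, and up to 4 called genes per direction in each comparison. Other genes are named beside these where a count or a range needed them. Of the other replication genes, the 3 called with the largest change were named in the main comparisons. Genes named beyond this rule were chosen after their values were seen. Promoters came from RefSeq.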

Additional observations from a re-analysis of the deposited data

How the results depend on the processing

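All 179 called changes of the 38 genes had the same sign in each library, and no alternative reversed one. Calls came from fits to both libraries together, which favour genes with the same sign in each, so the shared sign is no separate support. With 1 library left out no test could be made, since no residual degrees of freedom remain. The median log2 change was then 0.34 to 0.41 in neural tube and -0.49 to -0.32 in notochord. Treating the libraries as unpaired, with no replicate block, lowered the calls to 3 in caudal epiblast, 14 in neural tube, 0 in presomitic mesoderm, 2 in somite, 0 in lateral plate mesoderm, 0 in allantois, 3 in endothelium, 2 in gut endoderm, 16 in extraembryonic endoderm, 1 in surface ectoderm, 12 in notochord, 0 in presomitic mesoderm against caudal epiblast, 0 in somite against presomitic mesoderm and 5 in the mitosis comparison. Calls over all 14871 genes fell too. Higher and lower, they were 525 and 198 in caudal epiblast, 931 and 732 in neural tube, and 700 and 609 in somite. Endothelium had 2155 and 1105, gut endoderm 1671 and 478, and extraembryonic endoderm 2481 and 1363. Surface ectoderm had 1207 and 405, notochord 1155 and 606, and the mitosis comparison 24 and 7 of 13112 genes. Presomitic mesoderm had 451 and 166, lateral plate mesoderm 528 and 263, and allantois 258 and 153. Presomitic mesoderm against caudal epiblast had 96 and 54, and somite against presomitic mesoderm 160 and 180. DESeq2 called 10 in presomitic mesoderm, 4 in lateral plate mesoderm, 8 in presomitic mesoderm against caudal epiblast (1 higher, 7 lower), 3 in somite against presomitic mesoderm and 7 in neural tube against caudal epiblast. In lateral plate mesoderm, DESeq2 called 7.41% of all genes higher and 8.68% lower. Somite against presomitic mesoderm fell to 0 calls with 0 to 10% mitochondrial UMIs, with at least 5000 UMIs, with at least 3 markers, with no scaling and with no filter on low counts. Keeping 0 to 10% mitochondrial UMIs also gave 2 calls in presomitic mesoderm and 5 in lateral plate mesoderm, and at least 3 markers gave 1 in allantois. Of all 14900 genes tested with 0 to 10%, 1114 were higher and 953 lower in presomitic mesoderm, and 1079 and 776 in lateral plate mesoderm. With at least 3 markers, 414 of 14793 genes were higher and 330 lower in allantois. No scaling gave 15 in endothelium, and no filter gave 10 in gut endoderm and 3 in surface ectoderm. Of all 23314 genes tested with no filter, 2480 were higher and 1075 lower in gut endoderm, and 1949 and 849 in surface ectoderm. A fit without the extraembryonic endoderm gate, an alternative chosen after seeing the data, gave 5 in lateral plate mesoderm, 4 in allantois, 3 in presomitic mesoderm against caudal epiblast, 4 in somite against presomitic mesoderm and 1 in neural tube against caudal epiblast. Of all 14548 genes in that fit, 1360 were higher and 770 lower in lateral plate mesoderm, and 565 and 461 in allantois. For the steps, in the order above, they were 500 and 566, 647 and 653, and 469 and 538. The cause of these shifts was not tested. Removing barcodes marked by Scrublet left every count within 1.5 times. Fewer barcodes were marked than the expected rate, so doublets may remain and their part was not settled. In barcodes under 0.3% mitochondrial UMIs, also chosen after seeing the data, the mean summed share was 0.516% in somite, 0.485% in allantois and 0.469% in surface ectoderm.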
